A study of Homo sapiens with 8 samples.

Results

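Long noncoding RNAs are transcripts that do not code for a long protein and act as RNA, or leave behind smaller RNAs cut from their introns. A set of 10, which are linked to the prostate or to growth control, were followed here in LNCaP cells in which the transcription factor GATA2 was targeted by siRNA. The members were PCA3, PCGEM1, PCAT1, MALAT1, NEAT1, H19, GAS5, SNHG1, MEG3 and TUG1, taken as every array probe whose RefSeq accession belongs to one of these 10 genes. Probes were found for 8 of the 10 genes, 17 probes in all out of 42405 on the array, and no probe was matched to PCAT1 or TUG1. MALAT1 had 5 probes, NEAT1 and MEG3 had 3 each, H19 had 2, and PCA3, PCGEM1, GAS5 and SNHG1 had 1 each. All 17 were kept for testing among 35514 probes, and 12 of the 17 were well above background on all 8 arrays. Probes of one gene are numbered from the brightest by their mean over the 8 arrays, and share a target, so they are not replicates.

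LNCaP, an androgen-responsive line grown from a lymph node metastasis of a human prostate cancer, was transfected with 30 nM of either the siRNA against GATA2 (siGATA2) or a scrambled negative control (siControl), with RNA taken after 72 h. Each group had 4 one-colour Agilent arrays, and the groups differed in no other agent. One siRNA against GATA2 was used in 1 cell line, and no source said whether the 4 samples of a group were separate cultures, so p-values measured the spread between these samples, which may be technical. Values below are log2 intensities after quantile normalization, a difference of 1 being a 2-fold change, and fold changes are given on that scale as siGATA2 over siControl, tested with limma with p adjusted over all probes tested.

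Nuclear-retained RNAs make up one class among these genes. NEAT1 is the scaffold on which paraspeckles, small nuclear bodies, are built, and MALAT1, its neighbour on chromosome 11, gathers at nuclear speckles that hold splicing factors. GAS5 and SNHG1 belong to another class, the host genes whose introns carry small nucleolar RNAs (snoRNAs) while the spliced exons are short-lived in the cytoplasm. H19 and MEG3 are imprinted, expressed from the maternal copy. PCA3 and PCGEM1 are known as transcripts of the prostate, PCA3 being a urine marker of prostate cancer.

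The silenced gene was examined first. The 4 arrays labelled siGATA2 gave 12.61, 12.54, 11.57 and 11.40 for GATA2, and the 4 labelled siControl gave 11.74, 11.28, 11.10 and 11.29. Its single probe was therefore not lower on the arrays labelled siGATA2, and the difference was 0.68 (SE 0.311, limma adjusted p = 0.151). The value was positive in all 23 alternative settings, from 0.03, within the second row of the slide and with scaling to spike-in probes, to 0.95 within the first row of the slide. For this reason the arrays are named by their labels throughout, and every direction below rests on those labels.

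The LNCaP identity of the cells was checked with markers. All 11 luminal prostate markers tested were well above background on all 8 arrays. On arrays labelled siGATA2, 7 were lower and 1 higher, beside 14.2% lower and 12.3% higher among all genes. Their summed linear signal was 340617 to 521502 there against 512122 to 619375 on arrays labelled siControl. SLC45A3 and ACP3 had fold changes of -2.87 and -2.15, and KRT8, a luminal keratin, had one of 0.56 (limma adjusted p = 0.0283), a call that was lost without any 1 of 6 arrays, and of -0.098 with spike-in scaling. Of 12 markers of basal, stromal, endothelial and blood cells 10 were tested, 4 of these were well above background on all 8 arrays (COL1A1, CD14, CDH5 and PTPRC), 0 were lower and 1, PTPRC, was higher. Their summed signal was 1722 to 2084 on arrays labelled siGATA2 and 1608 to 1988 on arrays labelled siControl. TP63, the defining factor of basal cells, was well above background on 2 of 4 arrays labelled siGATA2 and 1 of 4 labelled siControl. KRT14, a basal keratin, was so on 4 of 4 and 3 of 4 arrays and was not called. The part of these markers in the results below was not tested. In bulk RNA, fewer cells of a type and less RNA per cell cannot be told apart.

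Several arrays stood apart. Between 24241 and 36968 probes were well above background per array, the lowest 2 numbers being those of siControl arrays 3 and 1 (24241 and 28485). For NEAT1, MALAT1 and SNHG1, siGATA2 arrays 1 and 2 and siControl array 1 read higher than the other arrays of their group, so the groups were broad. The 8 arrays shared 1 slide and 1 scan, with siGATA2 arrays 1, 2 and 3 and siControl array 4 in the first row and the other 4 arrays in the second row.

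Of the 17 probes, 3 were called lower (H19 probe 2, GAS5 and SNHG1) and 5 higher (MALAT1 probes 1 and 4 and NEAT1 probes 1 to 3) on arrays labelled siGATA2 at an adjusted p under 0.05, and all 8 also changed at least 2-fold. Across all probes tested 14.5% were called lower and 12.5% higher, so the 17.6% of member probes called lower was close to the array at large, and the 29.4% called higher came from only 2 transcripts. The groups did not overlap for 6 of 17 probes (35.3%), against 33.0% of all probes tested. The remaining 9 probes did not pass the test. Among all probes called, 53.7% were lower, and 93.6% were lower when arrays were scaled to spike-in probes, a setting that kept 0 of the 5 higher calls. Of all 35514 probes that setting called 166 higher, against 4447 without it. A count of 0 higher under spike-in scaling, here or in the lists below, is therefore not particular to these genes.

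**Figure D1:**
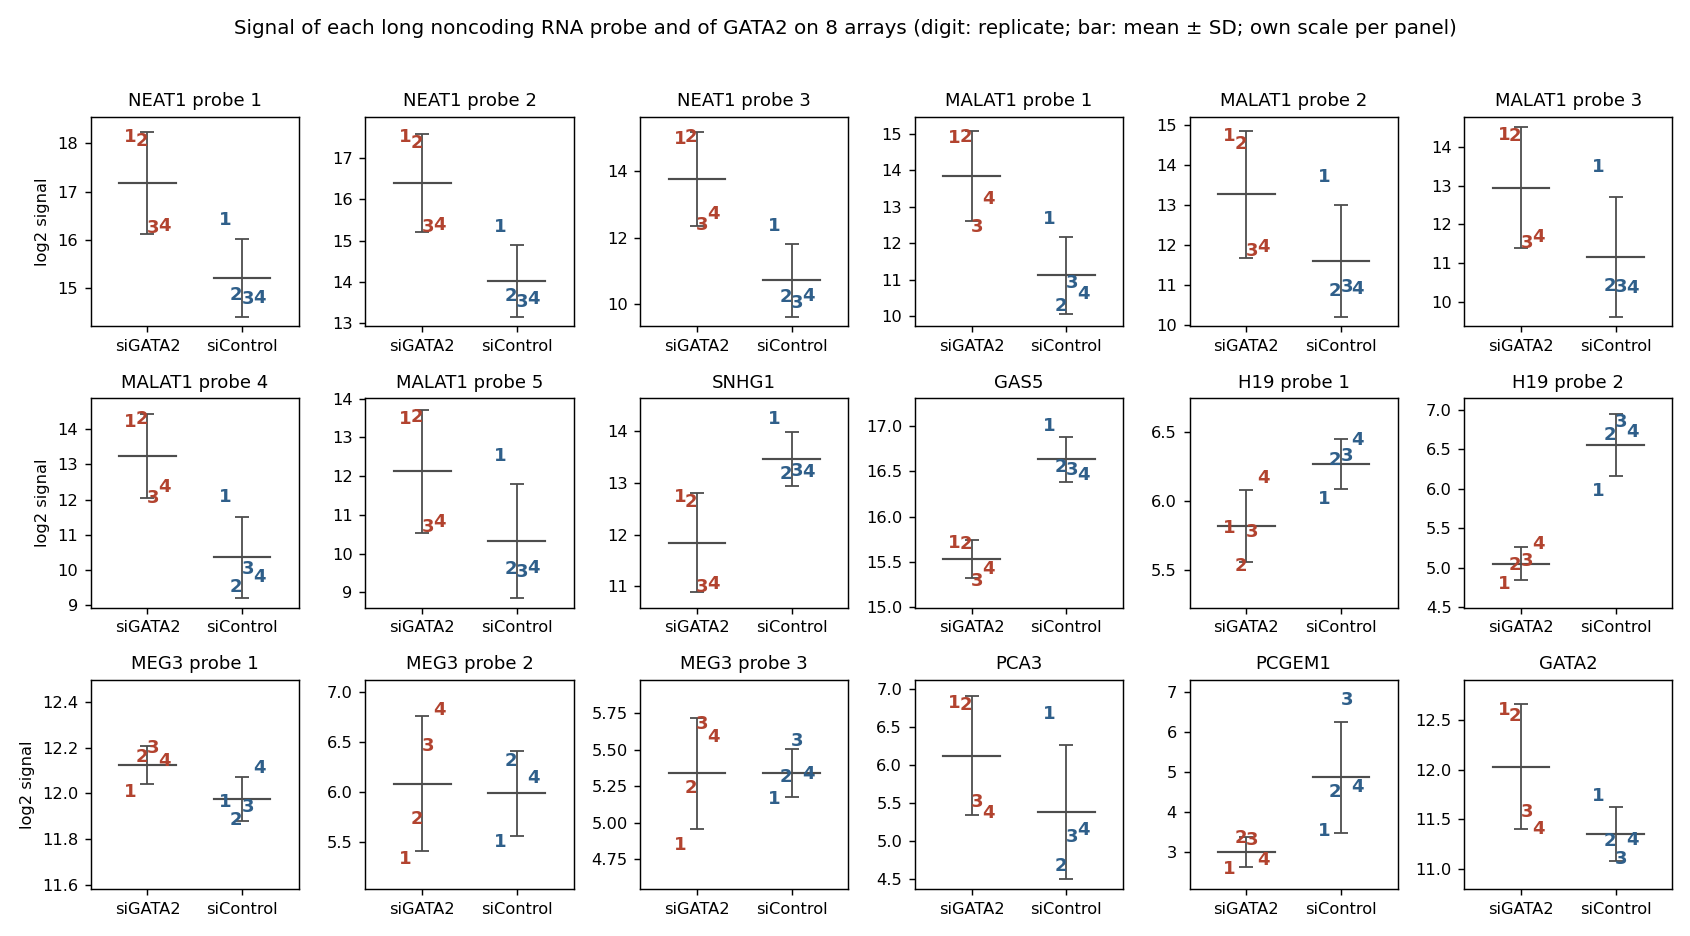
Log2 signal of the 17 long noncoding RNA probes and of GATA2 on each array, with the digit giving the replicate, red for arrays labelled siGATA2 and blue for arrays labelled siControl, bars for the mean ± SD, and an own vertical scale in each panel. In the NEAT1, MALAT1 and SNHG1 panels, siGATA2 arrays 1 and 2 and siControl array 1 lie above the rest of their groups.

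NEAT1 rose on arrays labelled siGATA2 by all 3 of its probes. Probe 2 read 17.51, 17.36, 15.34 and 15.39 on siGATA2 arrays 1 to 4 and 15.32, 13.65, 13.51 and 13.58 on siControl arrays 1 to 4. The lowest siGATA2 array was just above the highest siControl array, so the groups did not overlap, though only by a small margin. The fold change was 2.38 (SE 0.651, limma adjusted p = 0.0288). The call was lost without any 1 of 5 arrays, as were those of the other NEAT1 probes and of MALAT1 probes 1 and 4.

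Probe 3 of NEAT1 read 14.94, 15.01, 12.39 and 12.70 against 12.35, 10.23, 10.03 and 10.25, again without overlap and again with a narrow gap between siGATA2 array 3 and siControl array 1. Its fold change of 3.04 (SE 0.781, limma adjusted p = 0.0224) stood at rank 69 from the highest among the 35514 probes tested. Probe 1, the brightest, read 18.14, 18.04, 16.24 and 16.28 against 16.42, 14.85, 14.76 and 14.78. Here siControl array 1 lay above 2 of the siGATA2 arrays, and the fold change was 1.98 (SE 0.587, limma adjusted p = 0.0398).

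MALAT1 rose by probes 1 and 4 and did not pass the test by probes 2, 3 and 5. Probe 4 read 14.22, 14.30, 12.05 and 12.36 on siGATA2 arrays 1 to 4 and 12.07, 9.51, 10.02 and 9.81 on siControl arrays 1 to 4, with siControl array 1 just above siGATA2 array 3. The fold change was 2.88 (SE 0.730, limma adjusted p = 0.0214). Probe 1 gave 14.88, 14.90, 12.43 and 13.21 against 12.67, 10.28, 10.91 and 10.62, with siControl array 1 again above siGATA2 array 3 and a fold change of 2.74 (SE 0.715, limma adjusted p = 0.0241).

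The other MALAT1 probes had smaller differences and wider spreads. Probe 2 read 14.73, 14.53, 11.84 and 11.94 against 13.70, 10.84, 10.94 and 10.89, so that siControl array 1 was well above siGATA2 arrays 3 and 4. Its fold change was 1.66 (SE 0.926, limma adjusted p = 0.228). Probes 3 and 5 gave similar fold changes, 1.79 (SE 0.958, limma adjusted p = 0.213) and 1.80 (SE 0.947, limma adjusted p = 0.204). All 5 probes match the same RefSeq transcript.

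Whether the probes of a transcript moved by different amounts was asked within each array, where a shift that acts on the whole array alike cancels. Of 13 pairs of probes (10 of MALAT1 and 3 of NEAT1), the difference between 2 probes did not overlap between the groups in 8. Each of these gave p = 0.0286 in an exact two-sided permutation test over the 8 arrays, the smallest that 4 against 4 arrays allow, and 0.0464 after Benjamini-Hochberg adjustment over the 13 pairs. In MALAT1, probe 4 rose over probe 2 by 1.21, over probe 3 by 1.09 and over probe 5 by 1.07 more on arrays labelled siGATA2 than on arrays labelled siControl. Probe 1 did so over probe 2 by 1.07 and over probe 3 by 0.95, while its 0.93 over probe 5 overlapped between groups (exact p = 0.0571, adjusted 0.0825). Within the set of probes 2, 3 and 5 the differences in change were at most 0.14, as they were between probes 1 and 4, and none passed the test. These sets of MALAT1 probes were formed after their values were seen.

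In NEAT1, probe 3 gained 1.07 over probe 1 and 0.66 over probe 2, and probe 2 gained 0.41 over probe 1. All 3 pairs passed. The size of the change thus depended on the probe by which either transcript was read, and the probes were not placed along the transcripts here. In NEAT1 the change was larger the dimmer the probe (1.98, 2.38 and 3.04 for probes 1 to 3), while in MALAT1 it did not follow brightness. A response that varies with signal level does not cancel within an array, and its part was not tested.

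**Figure D2:**
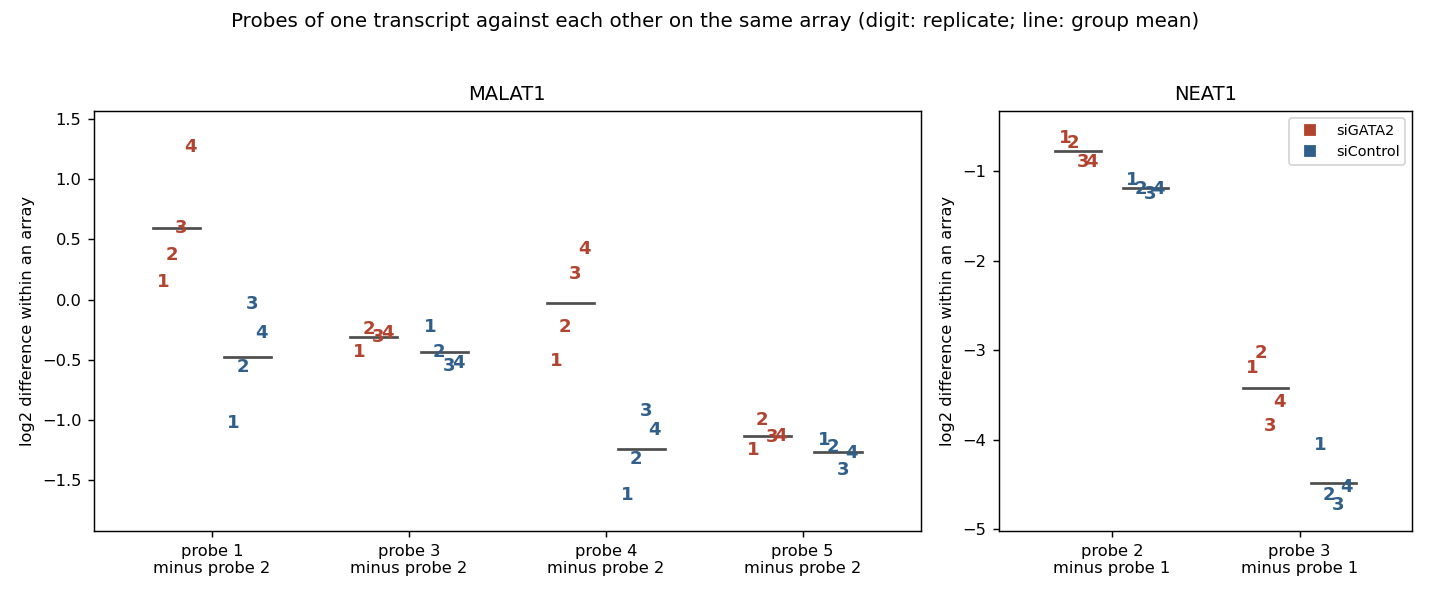
Log2 difference within an array between a probe and the reference probe of the same transcript, MALAT1 on the left and NEAT1 on the right, with a digit for each replicate and a line for the group mean. For MALAT1, probes 1 and 4 shift by about 1 log2 unit against probe 2 between the groups, while probes 3 and 5 keep their distance. The offset of a probe from zero compares different probes and is not a level.

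One of the 2 promoter windows of MALAT1 in RefSeq is shown because it holds the only match in this gene to any word searched. It spans chr11:65498795-65499094 of GRCh38.p14 on the plus strand, from 250 bases before the start to 50 after it, and capitals mark TGTTCT, the reverse complement of AGAACA, one arm of the androgen receptor element.

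MALAT1 window 2: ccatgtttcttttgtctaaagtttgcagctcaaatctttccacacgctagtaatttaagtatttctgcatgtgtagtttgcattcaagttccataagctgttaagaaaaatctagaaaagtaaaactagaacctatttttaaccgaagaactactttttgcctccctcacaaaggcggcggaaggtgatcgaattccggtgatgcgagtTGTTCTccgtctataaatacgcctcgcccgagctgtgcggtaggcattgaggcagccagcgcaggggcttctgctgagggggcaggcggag

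The match begins 41 bases before the start. AGAACA on either strand occurs in 14.8% of all 35116 promoter windows of the same length. No GATA motif (searched on both strands as AGATAA, also with T as its first or G as its last letter, in 24.97% of all windows) and no CACGTG (an E-box bound by MYC, 7.26% of all windows) was found in either MALAT1 window. No match says only that these letters are absent from these windows.

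SNHG1 and GAS5 fell together. SNHG1 read 12.73, 12.63, 10.98 and 11.05 on siGATA2 arrays 1 to 4 and 14.24, 13.18, 13.23 and 13.21 on siControl arrays 1 to 4. Every siGATA2 array lay below every siControl array, although siGATA2 arrays 1 and 2 lay far above arrays 3 and 4. The fold change was -1.62 (SE 0.483, limma adjusted p = 0.0405), a 3.07-fold higher signal on arrays labelled siControl, and the call was lost without any 1 of 6 arrays.

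GAS5 was the steadiest of the members that changed. It read 15.71, 15.70, 15.29 and 15.42 on siGATA2 arrays and 17.01, 16.55, 16.52 and 16.46 on siControl arrays, without overlap. The fold change was -1.11 (SE 0.166, limma adjusted p = 0.00185), a 2.15-fold higher signal on arrays labelled siControl.

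The promoter windows of both host genes are printed as a pair because their transcripts fell together. GAS5 lies at chr1:173868996-173869295 and SNHG1 at chr11:62855836-62856135 of GRCh38.p14, both read 5′ to 3′ on the minus strand, and capitals mark the 50 bases from the RefSeq start on. 

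SNHG1: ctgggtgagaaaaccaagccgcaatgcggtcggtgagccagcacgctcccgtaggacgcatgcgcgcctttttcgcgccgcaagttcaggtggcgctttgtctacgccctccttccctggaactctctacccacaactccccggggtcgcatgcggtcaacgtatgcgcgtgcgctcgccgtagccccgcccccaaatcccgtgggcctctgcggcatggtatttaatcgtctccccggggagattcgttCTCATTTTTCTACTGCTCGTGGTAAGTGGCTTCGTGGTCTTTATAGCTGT

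GAS5: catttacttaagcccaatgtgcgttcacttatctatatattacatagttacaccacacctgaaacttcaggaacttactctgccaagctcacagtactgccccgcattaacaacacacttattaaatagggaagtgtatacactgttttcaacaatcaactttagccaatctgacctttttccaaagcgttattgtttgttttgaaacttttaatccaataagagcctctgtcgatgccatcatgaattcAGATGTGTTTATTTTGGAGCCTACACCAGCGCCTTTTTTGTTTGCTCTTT

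The SNHG1 window held none of the words searched. The GAS5 window held one GATA motif, as TTATCT on the printed strand, which begins 222 bases before the start. Across the other snoRNA host genes, 15 of 18 had a promoter window in the table, and 3 of these 15 held a GATA motif, 1 an E-box and 1 an androgen receptor arm.

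The other noncoding snoRNA hosts gave the broadest picture around these members. Of 18 tested, 13 fell, 0 rose and 5 did not pass, with a median fold change of -1.17. Among all 28850 genes tested, each by its brightest probe, 14.2% were called lower and 12.3% higher, with a median of 0.09. SNHG3 fell from 15.97 ± 0.172 to 14.11 ± 0.241 (SD, n = 4 each), a fold change of -1.87 (SE 0.154, limma adjusted p = 0.0001). DANCR fell by 1.77 (SE 0.165, limma adjusted p = 0.000175) and SNHG4, a dim transcript, by 1.54 (SE 0.311, limma adjusted p = 0.00811). SNHG9 at -0.003 and SNHG11 at 0.15 stood apart from the hosts that fell. The count of hosts called lower was 9 to 14 across 21 alternatives. These leave out the fits within a row of the slide, where 1 array stands against 3.

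**Figure D3:**
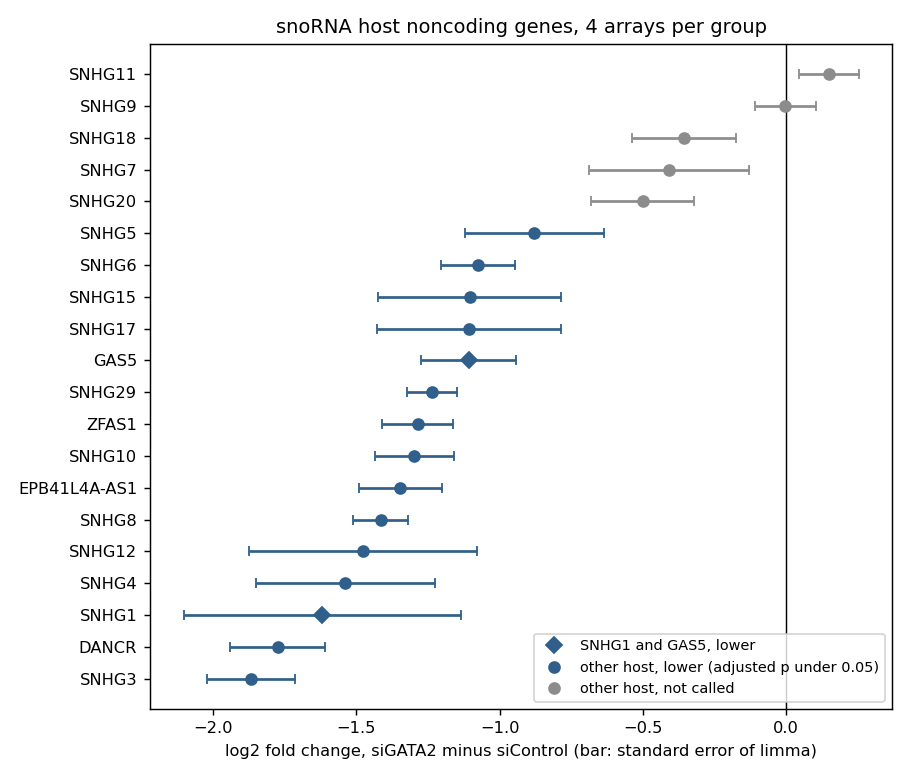
Log2 fold change, siGATA2 minus siControl, of SNHG1, GAS5 and 18 other noncoding snoRNA host genes with the limma standard error as a bar, diamonds for SNHG1 and GAS5, blue for adjusted p under 0.05 and grey for the rest. Both members lie among the hosts that fell, between SNHG3 at -1.87 and SNHG5 at -0.88.

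Genes that make the snoRNA particles, or whose mRNAs are known to open with a run of pyrimidines that couples translation to growth, were counted next. The stretches printed from the RefSeq starts open with CTCATTTTTCT for SNHG1 and with AGATGTG for GAS5. An annotated start alone cannot show whether a transcript carries such a run. Of 18 genes of this list tested, 10 fell, 0 rose and 8 did not pass, with a median of -0.57. Among all genes tested 14.2% were called lower and 12.3% higher. The count lower was 6 to 14 across 21 alternatives, and 6 with scaling to spike-in probes. NAP1L1, a histone chaperone, fell by 2.14 (SE 0.0892, limma adjusted p = 1.32e-05). FBL, the methyltransferase of box C/D snoRNA particles, fell by 1.63 (SE 0.120, limma adjusted p = 6.17e-05), and DKC1, the pseudouridine synthase of the box H/ACA particles, fell by 1.25 (SE 0.131, limma adjusted p = 0.000316). EEF1A1 and TPT1, classical mRNAs of this kind, gave -0.07 and -0.02.

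The spliced exons of GAS5 and SNHG1 are known substrates of nonsense-mediated decay, so the factors of that pathway were listed too. Of 14 tested, 3 fell, 1 rose and 10 did not pass, with a median of -0.21, beside 14.2% lower and 12.3% higher among all genes. SMG5, which recruits decay enzymes, fell by 1.09 (SE 0.193, limma adjusted p = 0.00427), UPF3B by 0.65 (limma adjusted p = 0.005) and RBM8A, of the exon junction complex, by 0.61 (limma adjusted p = 0.0117). UPF3A had a fold change of 0.35 (limma adjusted p = 0.0422), a call that was lost without any 1 of 7 arrays, and of -0.24 with spike-in scaling. The count lower was 1 to 5 across 21 alternatives. UPF1, the central helicase, had a fold change of -0.25 (limma adjusted p = 0.0796).

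Proteins of the bodies in which NEAT1 and MALAT1 reside were mostly not called. Of 19 paraspeckle proteins 2 fell, 1 rose and 16 did not pass, with a median of -0.18, beside 14.2% lower and 12.3% higher among all genes. NONO, one of the core proteins that bind NEAT1, had a fold change of -0.35 (SE 0.0919, limma adjusted p = 0.0255), a call that was lost without any 1 of 6 arrays and with spike-in scaling. SMARCA4, a chromatin remodeller, fell by 1.23 (limma adjusted p = 0.00103). ZNF335 rose by 0.83 (limma adjusted p = 0.00845), and by spike-in scaling it was at 0.20 (limma adjusted p = 0.883). SFPQ and PSPC1, the other core proteins, gave -0.18 and 0.08.

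Of 16 nuclear speckle proteins 3 fell, 5 rose and 8 did not pass, with a median of -0.02, beside 14.2% lower and 12.3% higher among all genes. RNPS1, a splicing activator, fell by 1.46 (SE 0.153, limma adjusted p = 0.000306). SRSF3 fell by 0.75 and U2AF2, a subunit of the factor that reads the 3′ splice site, by 0.55. The kinases CLK1 and DYRK1A rose by 0.81 (SE 0.200, limma adjusted p = 0.0193) and 0.82 (SE 0.166, limma adjusted p = 0.00827), and SRSF5 rose by 0.80 (limma adjusted p = 0.0025). The U2AF2 call was lost without any 1 of 5 arrays and the CLK1 call without any 1 of 3. With scaling to spike-in probes, which moved the median of all probes from 0.08 to -0.43, 1 of the 16 was called lower and 0 higher.

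H19 was read by 2 dim probes that both had a lower mean on arrays labelled siGATA2. Probe 2 read 4.79, 5.03, 5.09 and 5.30 on siGATA2 arrays 1 to 4 and 5.97, 6.68, 6.85 and 6.72 on siControl arrays 1 to 4, without overlap. The fold change was -1.50 (SE 0.212, limma adjusted p = 0.00138), a 2.84-fold higher signal on arrays labelled siControl. Probe 1 read 5.80, 5.53, 5.78 and 6.17 against 6.01, 6.30, 6.33 and 6.44, with overlap through siGATA2 array 4, and its fold change of -0.45 (SE 0.164, limma adjusted p = 0.0790) did not pass. A background correction with an offset, which shrinks dim probes, moved probe 2 to -0.65 (limma adjusted p = 0.00392).

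MEG3 did not differ detectably by any of its 3 probes. The bright probe 1 read 12.01, 12.16, 12.20 and 12.14 against 11.96, 11.88, 11.94 and 12.11, a fold change of 0.15 (SE 0.102, limma adjusted p = 0.314). This was the narrowest spread of all members, with SDs of 0.0835 and 0.0964. Probes 2 and 3 had fold changes of 0.10 (SE 0.397, with siControl array 3 left out because its spot was marked as an outlier) and -0.01 (SE 0.200), and the sign of each of the 3 probes turned in at least 1 alternative, scaling to spike-in probes included for probes 1 and 2.

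The imprinted neighbours listed for H19 and MEG3 rose or did not pass, while MEG3 itself did not differ detectably. Of 7 tested, 0 fell and 3 rose, with a median of 0.55, beside 14.2% lower and 12.3% higher among all genes. With spike-in scaling 0 fell and 1 rose. IGF2, the growth factor that shares the imprinted domain of H19, rose from 7.77 ± 0.332 to 10.07 ± 0.359 (SD, n = 4 each), a fold change of 2.31 (SE 0.229, limma adjusted p = 0.000238). CDKN1C, a CDK inhibitor of the adjacent domain, rose by 1.83 (SE 0.103, limma adjusted p = 2.32e-05) and INS by 0.55 (limma adjusted p = 0.0247), the INS call being lost without any 1 of 4 arrays. DLK1, which lies beside MEG3, gave 0.17 (limma adjusted p = 0.244).

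PCA3 was dim and did not pass the test. It read 6.82, 6.79, 5.52 and 5.37 on siGATA2 arrays 1 to 4 and 6.67, 4.67, 5.05 and 5.14 on siControl arrays 1 to 4, where siControl array 1 was near the high siGATA2 arrays. The fold change was 0.74 (SE 0.521, limma adjusted p = 0.335), and it was -0.09 within the second row of the slide. PRUNE2, the gene in whose intron PCA3 lies on the opposite strand, fell from 14.53 ± 0.0743 to 11.95 ± 0.544 (SD, n = 4 each), a fold change of -2.58 (SE 0.254, limma adjusted p = 0.000228).

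PCGEM1 was at the edge of detection. None of the 4 arrays labelled siGATA2 read its probe well above background, at 2.58, 3.36, 3.29 and 2.79. Of the arrays labelled siControl 3 of 4 did, the values being 3.53, 4.51, 6.80 and 4.62. The groups did not overlap. The siControl mean of 4.87 was 3.54-fold higher than a siGATA2 value of 3.04. Averaged over the 4 arrays, this value took the higher of the probe's own signal and the lowest signal well above background there. It lies close to the probe's own mean of 3.01, so it does not cap an undetected signal. The siControl mean includes array 1, not well above background, and array 3, where negative control probes spread most (SD 7.26). The spread on siControl arrays was wide and the test did not pass (fold change -1.86, SE 0.629, limma adjusted p = 0.0634). Without siControl array 1 or 3 it passed, at -2.30 (limma adjusted p = 0.0243) and -1.21 (limma adjusted p = 0.0353). With spike-in scaling it passed as well, at -2.41 (limma adjusted p = 0.00661). With a normexp background correction the difference shrank to -0.44 (limma adjusted p = 0.0460), and in the single pairs of arrays that share the title letter B or F it was -0.17 and -4.01.

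The promoter window of PCGEM1 is shown because among the 8 members whose windows were searched (all but NEAT1 and PCAT1) only it held both a GATA motif and an androgen receptor arm. It spans chr2:192749595-192749894 of GRCh38.p14 on the plus strand, with capitals for TGTTCT (191 bases before the start) and CTATCA (137 bases before the start), which are the reverse complements of AGAACA and TGATAG.

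PCGEM1: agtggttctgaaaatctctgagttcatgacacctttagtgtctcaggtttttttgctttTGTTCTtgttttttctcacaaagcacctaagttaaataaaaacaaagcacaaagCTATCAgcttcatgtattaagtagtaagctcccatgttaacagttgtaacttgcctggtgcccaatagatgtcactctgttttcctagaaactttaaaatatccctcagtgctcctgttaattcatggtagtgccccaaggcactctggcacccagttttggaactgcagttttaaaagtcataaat

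Both PCA3 windows held AGATAA, at 173 and 175 bases before their starts, and the H19 window held TGTTCT at 117. The MEG3 windows held none of the words, and that of TUG1 held CACGTG at 77 bases before the start. A match of letters is not a bound site.

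Androgen-induced genes were listed beside PCA3 and PCGEM1, which are known to respond to androgen. Of 10 tested, 7 fell, 1 rose and 2 did not pass, with a median of -1.74, against 14.2% lower and 12.3% higher among all genes. With spike-in scaling 7 fell and 0 rose. The call of KLK3, one of those that fell, was lost without any 1 of 6 arrays. TRPM8, a calcium channel, fell by 5.05 (SE 0.179, limma adjusted p = 1.17e-05), SLC45A3 by 2.87 (SE 0.278, limma adjusted p = 0.000212) and PMEPA1, an inhibitor of TGF-beta signalling, by 2.31 (SE 0.122, limma adjusted p = 2.08e-05). NDRG1 rose by 1.21 (SE 0.123, limma adjusted p = 0.000266), and by spike-in scaling it was at 0.44 (limma adjusted p = 0.714).

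Genomic neighbours were compared with the members they flank. Of 12 tested, 3 fell (MYC, PRUNE2 and FRMD8), 2 rose (LTBP3 and ZBTB37) and 7 did not pass. Among all genes 14.2% were called lower and 12.3% higher. With spike-in scaling 3 of the neighbours fell and 0 rose. POU5F1B and TALAM1 had no probe tested. MYC, the oncogene next to PCAT1, fell from 14.91 ± 0.0820 to 12.16 ± 0.150 (SD, n = 4 each). On chromosome 11, around NEAT1 and MALAT1, FRMD8 fell by 1.06 (limma adjusted p = 0.00538) and LTBP3 rose by 1.03 (limma adjusted p = 0.0212), a call lost without any 1 of 4 arrays. ZBTB37, which shares the GAS5 locus, rose by 0.61 (limma adjusted p = 0.00486) while GAS5 fell. WDR74 and SLC3A2, which flank SNHG1, gave -0.40 (limma adjusted p = 0.145) and -0.01 (limma adjusted p = 0.983). MRPL23, MORC2 and MORC2-AS1 did not pass, at -0.32, -0.06 and -0.16.

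Other long noncoding RNAs were counted beside the 14.2% of all genes called lower and 12.3% called higher, and nothing particular to them is read from these counts. Of 8 tested that are linked to prostate cancer, 2 fell, 1 rose and 5 did not pass, with a median of -0.09. TMPO-AS1 fell by 1.21 (SE 0.125, limma adjusted p = 0.000294), PCAT19 fell by 0.68 (limma adjusted p = 0.00757) and CTBP1-DT rose by 0.58 (limma adjusted p = 0.0105).

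Of 18 other widely studied long noncoding RNAs 3 fell, 4 rose and 11 did not pass, with a median of 0.28. UCA1 rose by 1.93 (SE 0.330, limma adjusted p = 0.00368), LINC-PINT by 1.66 (SE 0.411, limma adjusted p = 0.0199) and CRNDE by 0.61 (limma adjusted p = 0.0237). The UCA1 probe was well above background on only 2 of 4 arrays labelled siControl, so its rise is set against a dim signal (mean 5.72). HOXA11-AS fell by 1.26 (SE 0.177, limma adjusted p = 0.00134), MIR17HG, the host of a microRNA cluster driven by MYC, by 1.13 (limma adjusted p = 0.0474) and DLEU1 by 0.92 (limma adjusted p = 0.000254). The calls of MIR17HG, CRNDE and LINC-PINT were lost without any 1 of 7, 6 and 4 arrays. RMRP and TERC, RNA parts of enzymes, gave 0.02 and 0.13. Under spike-in scaling 0 genes of either list were called in either direction, and CTBP1-DT and CRNDE were at -0.064 and -0.083.

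**Figure D4:**
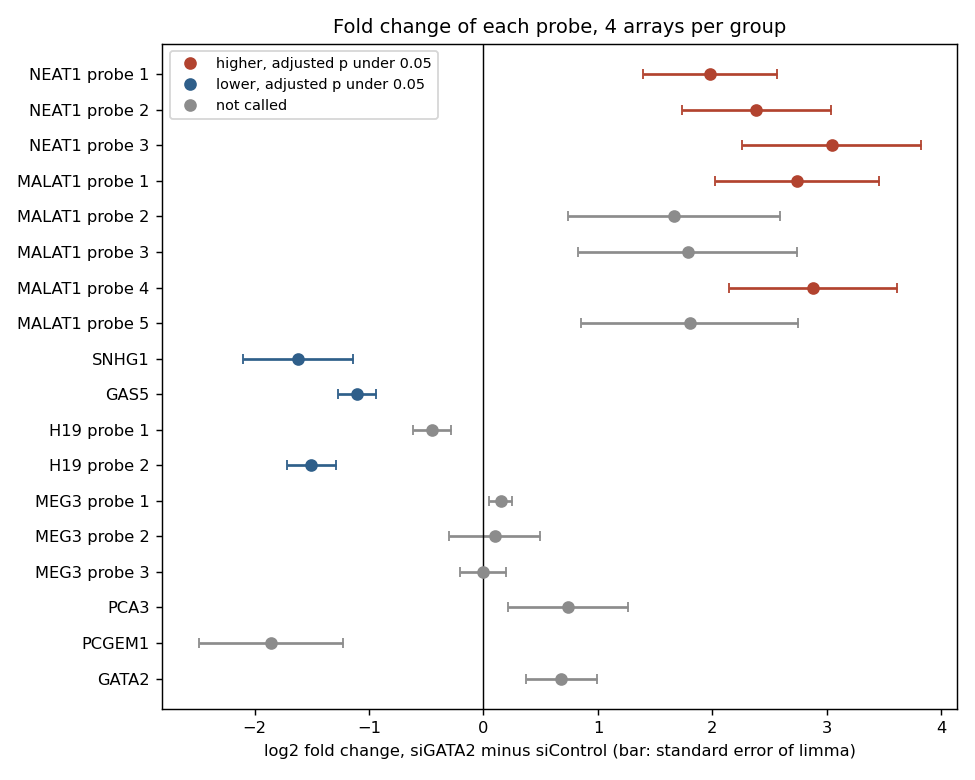
Log2 fold change of each member probe and of GATA2, siGATA2 minus siControl, with the limma standard error as a bar, red for probes called higher, blue for probes called lower and grey for the rest. The NEAT1 and MALAT1 probes lie between 1.66 and 3.04 with wide bars, GAS5 at -1.11 with a narrow one.

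How far each call rested on single arrays differed between members. GAS5 and H19 probe 2 passed with any 1 array left out, at -1.17 to -0.98 and -1.70 to -1.41. All 5 calls of NEAT1 and MALAT1 were lost without any 1 of 5 arrays, namely siGATA2 array 1 or 2 or siControl array 2, 3 or 4, at fold changes of 1.65 to 2.89. The highest adjusted p so reached was 0.101, for NEAT1 probe 1. SNHG1 lost its call without any 1 of 6 arrays (siGATA2 arrays 3 and 4 and all siControl arrays), at -1.72 to -1.33, with an adjusted p of up to 0.0925. The direction of the 8 called probes was the same in every alternative run.

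**Figure D5:**
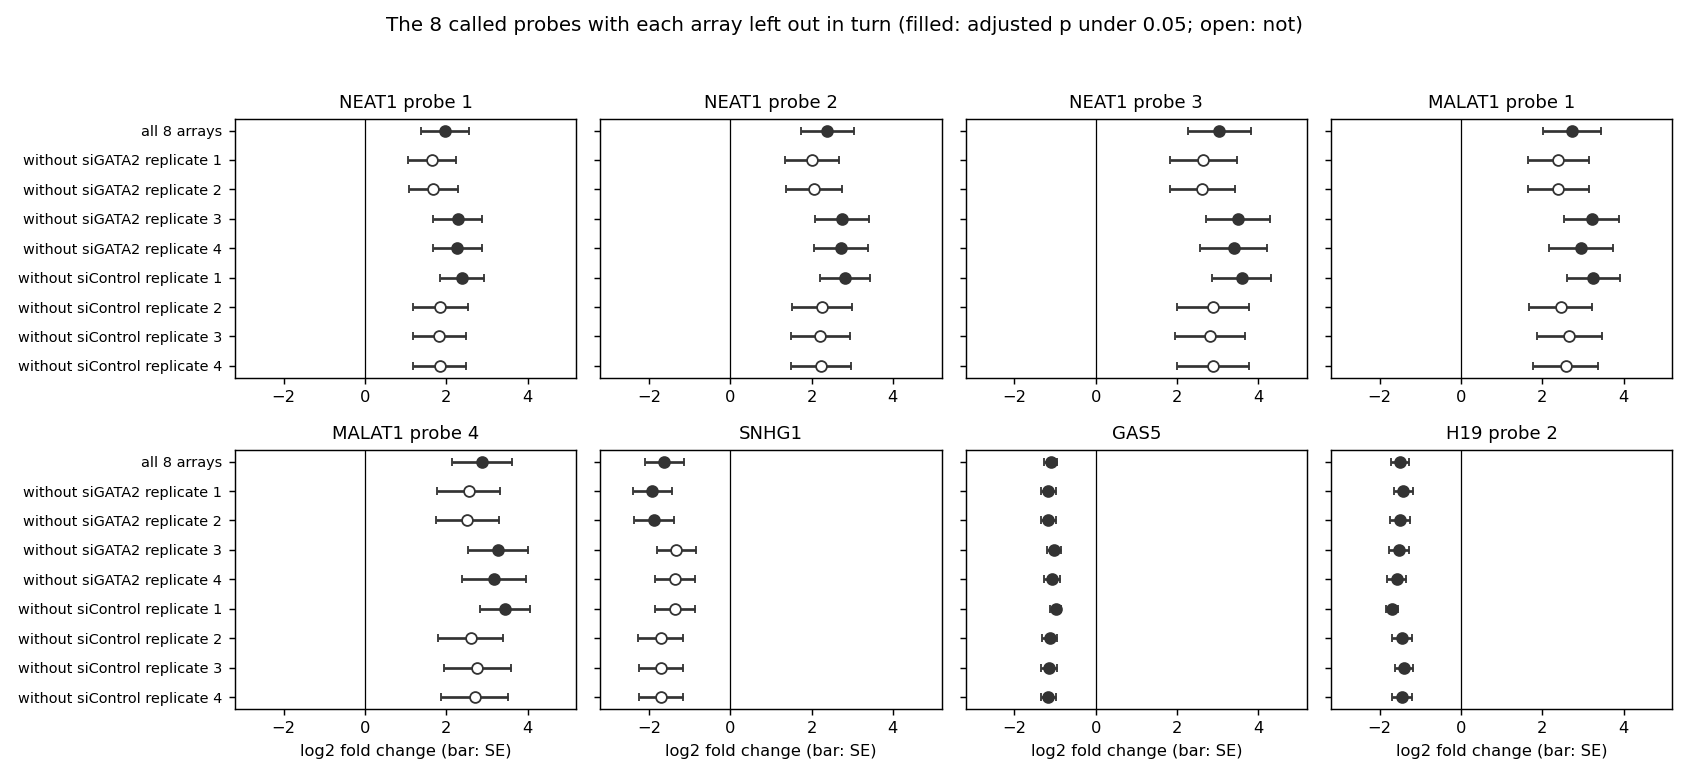
Log2 fold change with its limma standard error for the 8 called probes, with all 8 arrays at the top of each panel and each array left out in turn below, filled points for an adjusted p under 0.05 and open points for the rest. GAS5 and H19 probe 2 stay filled throughout, and the NEAT1 and MALAT1 probes each turn open in 5 of 8 rows.

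The position on the slide and the letter in the sample titles were set against the same calls. With the slide row as a block the NEAT1 and MALAT1 calls were lost (limma adjusted p = 0.0816 to 0.139), as was SNHG1 at -1.80 (limma adjusted p = 0.0806), while GAS5 at -1.09 (limma adjusted p = 0.0124) and H19 probe 2 at -1.48 (limma adjusted p = 0.00966) were kept. Within the first and the second row, NEAT1 probe 3 differed by 3.86 and 1.83, NEAT1 probe 2 by 3.15 and 1.23, and NEAT1 probe 1 by 2.70 and 0.94. MALAT1 probe 4 differed by 3.71 and 1.82 and MALAT1 probe 1 by 3.45 and 1.92, whereas MALAT1 probe 2 differed by 2.80 and 0.11. SNHG1 differed by -1.10 and -2.50, GAS5 by -0.89 and -1.28 and H19 probe 2 by -1.75 and -1.21.

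In order, the siGATA2 arrays carry the title letters A, B, E and F, and the siControl arrays B, D, F and G. The arrays that read high for NEAT1, MALAT1 and SNHG1 are those lettered A and B. B and F occur in both groups, with 1 array of each group. Within B and F, MALAT1 probe 1 differed by 2.23 and 2.30, NEAT1 probe 3 by 2.65 and 2.67 and NEAT1 probe 1 by 1.63 and 1.53. SNHG1 differed by -1.61 and -2.18 and GAS5 by -1.31 and -1.10. These pairs of single arrays have no test. MALAT1 probe 2, whose difference over all arrays did not pass, differed by 0.83 and 1.00. What the letters stand for is not given in the sources used here, and the part of slide row and of letter in these results was not tested.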

How the data were processed

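RNA of LNCaP cells was hybridized to 8 one-colour Agilent arrays, 4 per group. Per spot, the authors deposited linear intensities from Feature Extraction 11.0.1.1 (processed signal after background subtraction, spot median and local background) with quality flags. They also deposited log2 values per probe, quantile-normalized in GeneSpring according to the methods. The array design in the headers differs from that in the methods.

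From the processed signal, log2 values were averaged over spots of a probe not marked as outliers and quantile-normalized over the 8 arrays. Unannotated probes and those averaging below 3 were removed. The groups were compared with lmFit and eBayes of limma 3.58.1 in R 4.3.3, with Benjamini-Hochberg adjustment over 35514 probes, or over 28850 genes by the brightest probe for the related lists. Called means an adjusted p under 0.05, and the 2-fold threshold of the methods is given too. In place of their t-test, which was run as an alternative, limma was used. RefSeq accessions stood on 27902 probes, and 26364 of these were found in a table of GRCh38.p14, which also gave the promoter windows. The array headers name another build, so no probe coordinates are given. On simulated data for siGATA2 against siControl (35365 probes, 200 changed) the test recovered 35% of changes of 1 and 70% of changes of 2 on the log2 scale, with 1.87% of calls false. In the data 14.5% of probes were called lower and 12.5% higher, a far larger share, so these rates do not carry over directly.

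Named were all member probes, GATA2, the fixed genomic neighbours and, in each list, up to 3 called genes with the largest fall and up to 3 with the largest rise, other genes being chosen after their values were seen. Some genes that this rule names are not reported here. Members, lists and neighbours were chosen with earlier results of these data known. Arrays have no read depth, and their number, 4 per group, limits the precision. Alternatives were other scalings, background corrections, filters, tests, blocks and left-out arrays. Title letters as a block were added after seeing the data.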

Additional observations from a re-analysis of the deposited data

Results flagged for a closer look

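In 35 groups of 4 arrays (each probe of the members and GATA2 in each group), 7 held an array far from the other 3, measured as its gap to the nearest array over the whole range of the group. Chance alone gives about 5% of groups if groups are independent. Probes of one transcript on the same arrays are not, so 7 of 35 is not read against that share. All 7 were siControl array 1, which read higher than the other siControl arrays. Its title letter is B. For the same transcripts siGATA2 arrays 1 and 2, lettered A and B, read higher than the rest of their group. The value was 0.964 for MALAT1 probe 2, where array 1 read 13.70 and the others 10.84 to 10.94, 0.989 for MALAT1 probe 3 and 0.969 for MALAT1 probe 5. It was 0.945 for NEAT1 probe 1, 0.920 for NEAT1 probe 2 and 0.907 for NEAT1 probe 3. For SNHG1 it was 0.949, with 14.24 against 13.18 to 13.23. Without siControl array 1 the 5 calls of NEAT1 and MALAT1 were kept, with fold changes of 2.38 to 3.59, and SNHG1 was no longer called, at -1.36 (limma adjusted p = 0.0827). Why this array read high was not tested.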

How the results depend on the processing

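Of the 17 member probes 3 were called lower and 5 higher. The count higher fell to 0 with scaling to spike-in probes, with the methods' t-test (0 of 17 against 2 lower) and with the slide row as a block. Within either row 1 array stands against 3, so no counts are read there. With array weights the counts were 5 lower and 9 higher, and GATA2 passed at 0.80 (limma adjusted p = 0.0300). With the title letter as a random block, chosen after seeing the data, 5 were lower. The 5 higher calls of NEAT1 and MALAT1 were kept in that setting (limma adjusted p = 0.0056 to 0.0129). Leaving out 1 array gave 2 to 4 lower and 0 to 5 higher. Spike-in scaling made 93.6% of all calls lower, against 53.7%, and called only 166 of 35514 probes higher. By the brightest probe 2 member genes were called in each direction, and by the mean over probes 3 lower and 1 higher. The replicate numbers did not pair the arrays (correlations 0.53, -0.31, 0.17 and 0.23). With a replicate block 4 were lower and 5 higher.

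Signs turned only for probes that were not called. PCA3 was at -0.094 within the second row. MEG3 probe 1 was at -0.48 with spike-in scaling. MEG3 probe 2 was at -0.48 with spike-in scaling, -0.52 in the deposited matrix, -0.15 with array weights, -0.026 with a replicate block, -0.14 with siControl arrays 2 and 4 only and -0.31 within the first row. MEG3 probe 3 was at 0.31 with 75th percentile scaling, 0.034 with normexp, 0.081 with the slide row as a block, 0.012 with siControl arrays 2 and 4 only, 0.24 within the second row and 0.013 with the title letter as a random block. Without single arrays these ranged from -0.15 to 0.35 for probe 2 and from -0.12 to 0.16 for probe 3. Low signal over background limits PCGEM1, PCA3, H19 and the dim MEG3 probes.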
